A study of Homo sapiens with 6 samples.

Results

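The genes described here are those that the deposited annotation assigns to the KEGG pathways Homologous recombination or Fanconi anemia pathway. Of the 17687 genes in the table, 104 carry 1 or both assignments, with 49 in Homologous recombination, 74 in the Fanconi anemia pathway and 19 in both. They were chosen by this annotation column and not by any level or fold change, although the pathways were singled out with earlier results of these data known. They were measured by RNA-seq in KHM-5M cells, a human cell line that the labels describe as anaplastic thyroid cancer. The control group received PBS, the SS group sodium selenite, a selenium salt, and the SS+NAC group sodium selenite together with N-acetylcysteine, a thiol antioxidant. Each group had 2 libraries, all from this 1 cell line, and the labels name neither the dose nor the time of exposure. The study calls the 2 libraries of a group biological replicates without saying whether they came from separate cultures, so the p-values measure only the spread between these libraries. A group given N-acetylcysteine alone was not analysed here.

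Homologous recombination repairs a broken chromosome by copying the intact sister chromatid. The MRN complex and its partners cut back the broken ends, RPA coats the exposed single strand, and the BRCA1 and BRCA2 complexes prepare it for the search for the matching sequence. The Fanconi anemia pathway clears covalent links between the DNA strands. Its core complex attaches ubiquitin to FANCD2 and FANCI, after which nucleases cut out the link, translesion polymerases fill the gap and homologous recombination restores the chromosome. Inherited loss of these genes causes Fanconi anemia or predisposes to breast and ovarian cancer, and most of them are used chiefly in dividing cells.

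The libraries held 17645545 to 23810056 expected counts, and 101 to 104 of the 104 genes had a count in each library. Of the 104 genes, 96 passed the filter on low counts and were tested. The 8 that did not pass were C11orf65, FANCD2OS, GAS2, RSPH10B, RSPH10B2, SYCP3, RPA4 and POLN, with at most 0.50 CPM (counts relative to the TMM-scaled library size) in any library. RPA4 is an alternative form of an RPA subunit, and POLN is a DNA polymerase with a role in crosslink repair. The thyroid lineage factor PAX8 lay between 104 and 134 TPM (a level per length, scaled to the same total in each library) in all 6 libraries, but thyroglobulin (TG), the iodide transporter SLC5A5 and NKX2-1 stayed under 1 TPM, and FOXE1 reached 1.59 TPM. The libraries therefore carried 1 strongly expressed marker of thyroid follicular cells out of 5 found in the table. Of the leukocyte and endothelial markers, PTPRC, CD3E, PECAM1 and CDH5 stayed under 1 TPM, and CD68 was the exception with 70.5 to 109 TPM. The keratins KRT8 and KRT18 and vimentin (VIM) were high in every library, at no less than 731 TPM, whereas EPCAM lay between 3.85 and 6.07 TPM, KRT19 reached 2.19 TPM and E-cadherin (CDH1) 0.290 TPM. Of the 5 epithelial markers 2 rose in SS compared to control, and of the 4 mesenchymal markers 1 rose and 2 fell. In a fit that removes the trend of the counts with transcript length, 0 epithelial markers were called and 1 mesenchymal marker was lower. Of all genes, 40.0% and 9.23% were called in these fits. ZEB1, a mesenchymal regulator, had 21.5 and 18.5 TPM in control, 8.52 and 8.39 TPM in SS and 17.5 and 23 TPM in SS+NAC. Of the other mesenchymal markers, CDH2 had 48.2 and 52.3 TPM in control and 35.2 and 30.8 TPM in SS. FN1 had 1130 and 1110 TPM in control and 889 and 661 TPM in SS. VIM was higher in SS, with 5880 and 6200 TPM in control and 6500 and 6620 TPM in SS. The part of these markers in the changes of the repair genes was not tested.

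Control cells expressed nearly the whole repair machinery. On the TPM scale, 93 of the 104 genes had a mean of at least 1 in control and 69 a mean of at least 10, with a median of 14.9. The most abundant member was SSBP1, the single-strand binding protein of mitochondria, with 319 ± 2.02 TPM (SD, n = 2). It was followed by SEM1, a small partner of BRCA2 that is also a proteasome subunit, with 248 ± 22 TPM, and by POLD2, a subunit of the replicative polymerase delta, with 217 ± 7.81 TPM. BRCA1 had 18.7 ± 0.636 TPM. The levels of the large genes were low per length, with 5.78 ± 0.474 TPM for the break-sensing kinase ATM, 4.53 ± 0.127 TPM for the polymerase REV3L, 3.07 ± 0.467 TPM for BRCA2 and 3.04 ± 0.580 TPM for the translocase FANCM. Within the core complex the level ran from 118 ± 0.304 TPM for the ubiquitin-conjugating enzyme UBE2T down to 1.38 ± 0.0566 TPM for FANCB. In the order of control levels, the libraries of neighbouring genes did not overlap in 35 places, and elsewhere neighbours could not be separated by their spread.

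Compared to the control group, 46 of the 96 tested genes (47.9%) changed in SS-treated cells at an edgeR adjusted p of at most 0.05, where the adjustment ran over all 14005 genes tested. Of all genes tested, 40.0% were called. Among the repair genes 30 were lower in SS, against 21.4% of all genes, and 16 were higher, against 18.6% of all genes. The median log2 fold change of the 96 was -0.07, beside 0.00 over all genes. The falls included the MRN subunits RAD50 and NBN, the kinases ATM and ATR, BRCA1 and BRCA2, FANCM and the polymerases REV3L and POLK. The rises included the RPA subunits RPA2 and RPA3, UBE2T and the nuclease subunits SLX1A, SLX1B and ERCC1. In bulk RNA, fewer cells of a type and less RNA per cell cannot be told apart. SLX1A and SLX1B are identical copies with equal values in every library, and counted as 1 gene they leave 45 calls of 95.

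**Figure D1:**
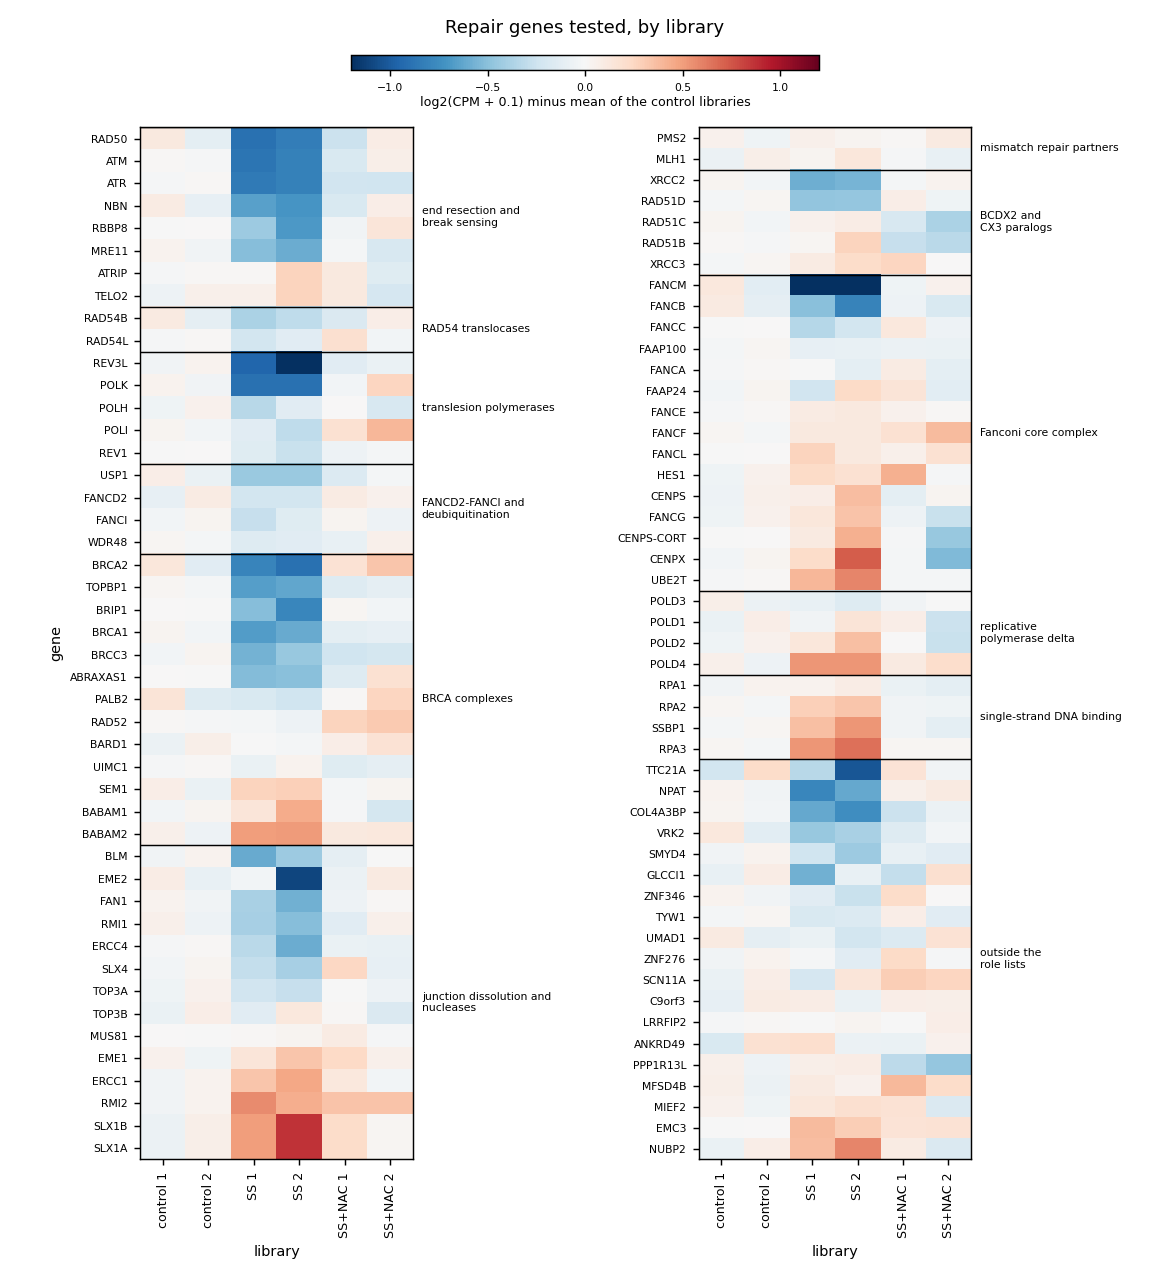
Tested repair genes in rows, ordered by role and by fold change, and the 6 libraries in columns. Colour gives log2(CPM + 0.1) minus the mean of the control libraries, on the scale of the colour bar. Both SS libraries are blue for 6 of the 8 break-sensing genes at the top left, with ATRIP and TELO2 the exceptions, and red for RPA2, RPA3 and SSBP1 at the right. For these blue and red genes the SS+NAC libraries are closer to control than the SS libraries. Some other genes lie further from control in SS+NAC than in SS, such as PPP1R13L (-0.31 and -0.47 in SS+NAC) and RAD51C (-0.19 and -0.38 in SS+NAC).

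The direction of the change followed transcript length. Genes do not count as independent replicates, and as a description the Spearman coefficient between effective length and log2 fold change over the 96 genes was -0.79, and it was -0.68 across all genes tested. Of the 26 repair genes shorter than 2000 bases, 16 were higher and 0 lower in SS. Of the 36 between 2000 and 4000 bases, 0 were higher and 11 lower, and of the 34 that were longer, 0 were higher and 19 lower. Among all genes tested, 53.8% of the short class were higher and 50.7% of the long class lower. The middle class of all genes had 10.0% lower and 10.0% higher, whereas the repair genes of that class had 30.6% lower and 0% higher. The repair genes run from SEM1 with 479 bases to ATM with 12882, with a median of 3286 against 3053 for all genes.

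Many results are also given from a fit with a length offset, which removes from each library the smooth trend of its counts with length. With the offset, 21 of the 96 genes were called (21.9%), compared to 9.23% of all genes, and the median was -0.04. The Spearman coefficient with length across the 96 genes was then -0.18. Taken apart, the 46 tested genes of Homologous recombination had a median of -0.13 without and with the offset, with 26 and 12 called (56.5% and 26.1%). The 68 of the Fanconi anemia pathway had -0.04 and 0.02, with 29 and 12 called (42.6% and 17.6%). The pathways share genes, and the difference between them was not tested. Of the 21 called genes, 18 were lower, against 5.04% of all genes, and 3 were higher, against 4.19%. Of the 46 genes called without the offset, 20 were called in both fits: the higher genes RPA3 and POLD4 and the lower genes FANCM, REV3L, POLK, RAD50, NBN, ATR, RBBP8, BRCA1, TOPBP1, BRCC3, ABRAXAS1, XRCC2, RAD51D, BLM, RMI1, USP1, COL4A3BP and VRK2. The mismatch repair gene PMS2 was called with the offset only, 0.30 (edgeR adjusted p = 0.0283), and its reads are uncertain because pseudogenes resemble it. The count with the offset rested on every library of the comparison. It was 1 without control replicate 1, 6 without control replicate 2, 4 without SS replicate 1 and 3 without SS replicate 2. RAD51D was the 1 gene of the 21 called with the offset whichever library was left out. Of the 46 genes called without the offset, 28 were called whichever library was left out. Among the other 18 were ABRAXAS1, BABAM1, CENPX, EMC3, ERCC1, ERCC4, FANCB, FANCC, NUBP2, RAD54B, RMI1, RMI2, RPA2, SEM1, SMYD4, TOP3A and VRK2. The calls of these 18 were lost without 1 or more of the control and SS libraries, with a highest edgeR adjusted p between 0.0510 for RMI1 and 0.380 for CENPX.

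**Figure D2:**
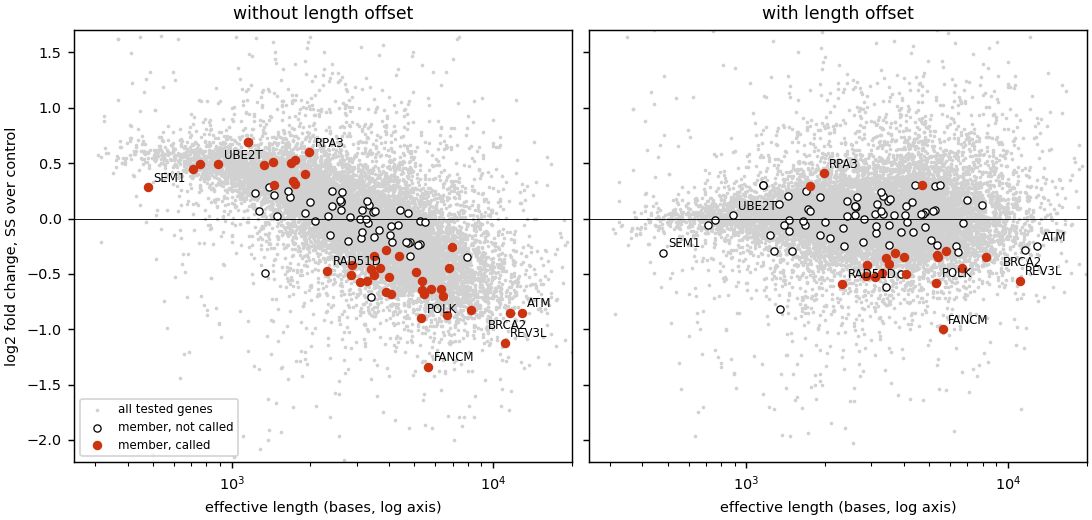
Effective length in bases on a log axis against the log2 ratio of SS to control, without the length offset on the left and with it on the right. Red points are repair genes called at an adjusted p of at most 0.05, open points are repair genes not called, and grey points are all genes tested, of which 73 on the left and 76 on the right lie outside the axes. The red points slope from the short genes at the upper left to the long genes at the lower right, and the slope is nearly gone on the right, where FANCM remains the lowest called repair gene.

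The deepest fall was that of FANCM, the DNA translocase that anchors the Fanconi core complex at stalled forks, on chromosome 14 from 45135420 to 45253221 (span of the table). FANCM had 9.62 and 8.10 CPM in control, 3.18 and 3.79 CPM in SS and 8.53 and 9.14 CPM in SS+NAC. Both SS libraries lay far below the other 4, and the control and SS+NAC libraries overlapped. FANCM fell by 60.5% compared to control, with a log2 change of -1.34 ± 0.160 (SE, edgeR adjusted p = 0.000264), and with the length offset its log2 fold change was -1.0 (edgeR adjusted p = 0.00519). REV3L, the catalytic subunit of polymerase zeta, which extends DNA past lesions, followed with 24.3 and 25.8 CPM in control, 12.9 and 10.2 CPM in SS and 22.7 and 23.7 CPM in SS+NAC. Again the SS libraries were lowest without overlap. REV3L fell by 53.9%, with a log2 change of -1.12 ± 0.116 (SE, edgeR adjusted p = 0.000162), and its value with the offset was -0.56 (edgeR adjusted p = 0.0111). FANCM rested on 73 and 83 counts in the SS libraries.

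The promoters of FANCM and REV3L are shown because these genes fell most, and those of ATM and NPAT because these neighbours, which both fell, start close together. RefSeq promoter windows on GRCh38.p14 were matched for 92 of the 104 genes. Each line below gives the 250 bases before the annotated start, 5′ to 3′ on the strand of the gene, at chr14:45135680-45135929 (plus strand) for FANCM, chr6:111483219-111483468 (minus) for REV3L, chr11:108222817-108223066 (plus) for ATM and chr11:108222639-108222888 (minus) for NPAT. Capitals mark matches, on either strand, to CCAAT, to the letters TGACNNNGC of an antioxidant response element, or to 1 of 4 E2F site forms, TTTCCCGC, TTTGGCGC, TTTCGCGC and TTTGCCGC.
FANCM: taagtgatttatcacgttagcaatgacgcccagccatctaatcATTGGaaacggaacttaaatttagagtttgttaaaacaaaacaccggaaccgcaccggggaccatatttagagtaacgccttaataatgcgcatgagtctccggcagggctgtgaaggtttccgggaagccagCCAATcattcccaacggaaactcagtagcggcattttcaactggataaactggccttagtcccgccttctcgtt
REV3L: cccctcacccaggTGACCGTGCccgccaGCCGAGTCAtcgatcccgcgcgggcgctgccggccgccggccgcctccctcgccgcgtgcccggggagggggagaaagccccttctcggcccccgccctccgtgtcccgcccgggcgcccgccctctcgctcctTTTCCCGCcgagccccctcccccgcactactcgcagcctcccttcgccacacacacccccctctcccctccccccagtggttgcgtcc
ATM: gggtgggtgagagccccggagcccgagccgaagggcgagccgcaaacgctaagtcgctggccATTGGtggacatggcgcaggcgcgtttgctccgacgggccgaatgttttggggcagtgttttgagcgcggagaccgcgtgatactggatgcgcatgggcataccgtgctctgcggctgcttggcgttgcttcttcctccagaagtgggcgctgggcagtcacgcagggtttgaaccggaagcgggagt
NPAT: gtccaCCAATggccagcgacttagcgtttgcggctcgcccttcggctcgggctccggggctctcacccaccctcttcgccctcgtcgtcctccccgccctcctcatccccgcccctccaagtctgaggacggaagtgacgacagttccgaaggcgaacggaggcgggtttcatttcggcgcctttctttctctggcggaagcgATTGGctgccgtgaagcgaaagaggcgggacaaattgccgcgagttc
The FANCM window holds 2 CCAAT matches, and the REV3L window holds 1 E2F match and 2 matches of the antioxidant letters. RefSeq gives 2 starts each for REV3L and ATM, of which the window with the lowest coordinate is printed, and the other REV3L window holds 0 matches to any of these motifs. The starts of ATM and NPAT, a gene for an activator of histone transcription that the annotation lists with homologous recombination, lie 429 bases apart on opposite strands, so these windows overlap. Among the matched repair genes 9 (9.8%) had an E2F match in the 250 bases before at least 1 of their starts, compared to 3.4% of 27305 genes with such a window. CCAAT was found in 41 (44.6%, against 37.0%) and the antioxidant letters in 12 (13.0%, against 13.2%). The genes with an E2F match were FANCA, FANCC, PMS2, POLI, REV3L, RMI1, SLX1A, SLX1B and SSBP1, of which REV3L, RMI1 and FANCC fell and SLX1A, SLX1B and SSBP1 rose without the offset. SLX1A and SLX1B are identical copies, and the count of 9 includes both. A match describes letters only and was not tested as a binding site.

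Most genes that sense breaks and trim their ends fell. Of the 8, 6 were lower in SS than in control and 0 were higher, with a median log2 fold change of -0.62. Of all genes tested, 21.4% were lower, and of those of 4000 bases or more, 50.7%. RAD50, the ATPase that holds DNA ends in the MRN complex, had 55.6 and 47.4 CPM in control, 27.6 and 28.9 CPM in SS and 43.0 and 54.5 CPM in SS+NAC. NBN, the MRN subunit that recruits ATM, had 136 and 120 CPM in control, 81.2 and 78.1 CPM in SS and 112 and 135 CPM in SS+NAC. For both genes the SS libraries lay below the other 4, and control and SS+NAC overlapped. RAD50 fell by 45.1%, with a log2 change of -0.87 ± 0.12 (SE, edgeR adjusted p = 0.000525), and with the offset had -0.45 (edgeR adjusted p = 0.0361). NBN fell by 37.7%, with a log2 change of -0.68 ± 0.10 (SE, edgeR adjusted p = 0.000673), and with the offset had -0.50 (edgeR adjusted p = 0.0103). MRE11, the nuclease of the complex, fell too, with a log2 change of -0.56 ± 0.0971 (SE, edgeR adjusted p = 0.00155), but its call did not pass with the offset, where the value was -0.24 (edgeR adjusted p = 0.150). RBBP8 (CtIP), which starts the trimming with MRE11, fell by 32.2%, with a log2 change of -0.56 ± 0.113 (SE, edgeR adjusted p = 0.00324), and kept its call with the offset, -0.49 (edgeR adjusted p = 0.0230).

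The kinases that signal DNA damage fell by similar amounts. ATM, on chromosome 11, had 35.8 and 35.1 CPM in control, 19.3 and 20.1 CPM in SS and 31.2 and 37.1 CPM in SS+NAC. ATR, the kinase activated by single-strand DNA, had 36.5 and 37.0 CPM in control, 20.4 and 20.9 CPM in SS and 31.2 and 31.1 CPM in SS+NAC. Both SS libraries were lowest for each kinase, and for ATR the SS+NAC libraries also lay below both control libraries. ATM fell by 44.4%, with a log2 change of -0.85 ± 0.0986 (SE, edgeR adjusted p = 0.000238). ATR fell by 43.8%, with a log2 change of -0.83 ± 0.0787 (SE, edgeR adjusted p = 0.000110). These genes are among the longest, and with the offset ATR kept its call, -0.35 (edgeR adjusted p = 0.0224), while ATM did not, -0.25 (edgeR adjusted p = 0.149). Their partners ATRIP and TELO2 were not called, with log2 fold changes of 0.15 and 0.16. With the offset 4 of the 8 genes remained called, RAD50, NBN, RBBP8 and ATR, where 5.04% of all genes were lower, and the median was -0.30.

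**Figure D3:**
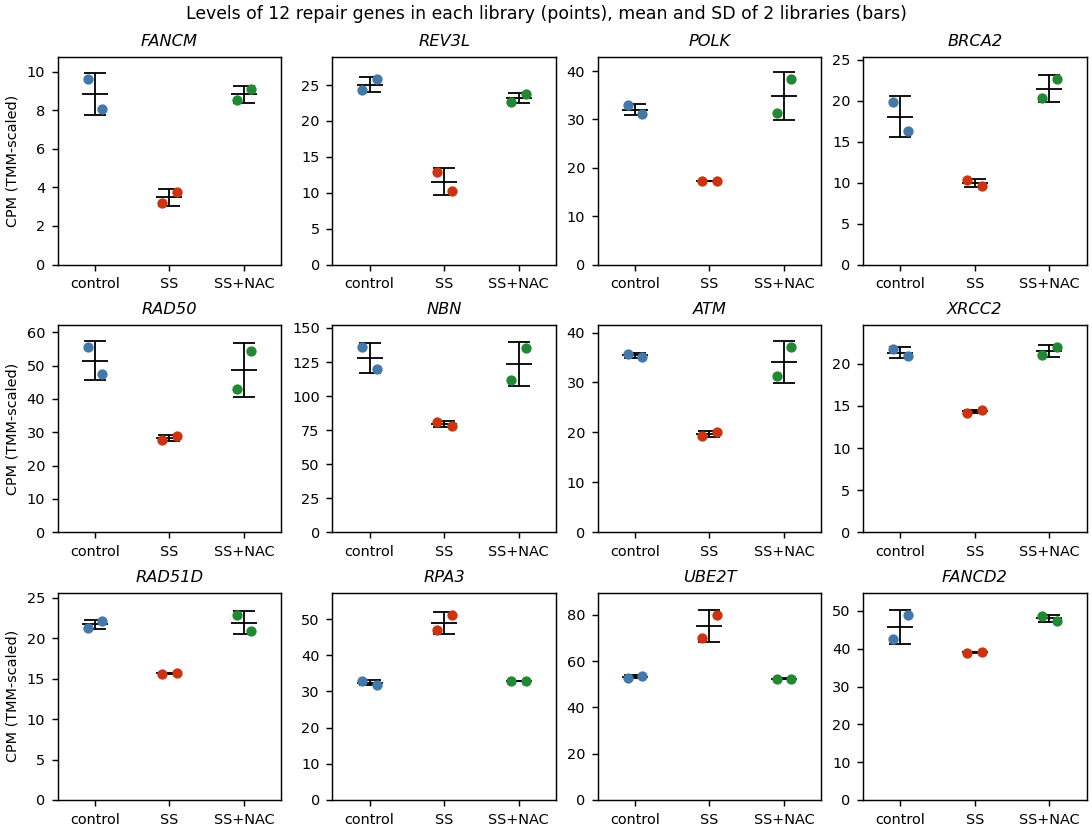
CPM of 12 repair genes in each library (points), with the mean and SD of the 2 libraries of a group (bars), on axes that start at 0. The SS points of FANCM, REV3L, POLK, BRCA2, RAD50, NBN, ATM, XRCC2 and RAD51D lie below all control and SS+NAC points, those of RPA3 and UBE2T lie above them, and those of FANCD2 lie below them by a smaller distance.

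Of the genes of the BCDX2 complex, which assists strand exchange, XRCC2 and RAD51D fell, and RAD51B and RAD51C were not called. XRCC2 had 21.8 and 20.9 CPM in control, 14.2 and 14.5 CPM in SS and 21 and 22 CPM in SS+NAC. RAD51D had 21.3 and 22.1 CPM in control, 15.6 and 15.7 CPM in SS and 22.9 and 20.9 CPM in SS+NAC. For both, the SS libraries lay below all others and the control and SS+NAC libraries overlapped. XRCC2 fell by 32.8%, with a log2 change of -0.57 ± 0.0926 (SE, edgeR adjusted p = 0.00104), and RAD51D by 28.0%, with a log2 change of -0.47 ± 0.0940 (SE, edgeR adjusted p = 0.00297). The offset left these values nearly as they were, with -0.53 (edgeR adjusted p = 0.00634) for XRCC2 and -0.59 (edgeR adjusted p = 0.00444) for RAD51D. RAD51D is of less than the median length with 2319 bases, and an annotated read-through transcript joins it to its neighbour RFFL, so its reads are uncertain. RAD51B, RAD51C and XRCC3, which pairs with RAD51C in another complex, were not called, with log2 fold changes between 0.07 and 0.16. The translocase RAD54B fell, with a log2 change of -0.34 ± 0.106 (SE, edgeR adjusted p = 0.0247), but not with the offset, -0.24 (edgeR adjusted p = 0.183). RAD54L, which opens the target duplex during strand exchange, had -0.18 and was not called.

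Of the 13 genes of the BRCA complexes, 6 fell and 3 rose, with a median log2 fold change of -0.21. For all genes the shares were 21.4% lower and 18.6% higher. The 3 that rose, SEM1, BABAM1 and BABAM2, are the shortest of the list. BRCA2, which acts once the ends are trimmed, had 19.8 and 16.3 CPM in control, 10.3 and 9.59 CPM in SS and 20.3 and 22.6 CPM in SS+NAC. BRCA1, which directs broken ends into recombination, had 58.7 and 56.5 CPM in control, 36.1 and 37.9 CPM in SS and 53.2 and 53.8 CPM in SS+NAC. In SS both genes lay below every other library. BRCA2 fell by 44.5%, with a log2 change of -0.85 ± 0.125 (SE, edgeR adjusted p = 0.000673), and BRCA1 by 35.8%, with a log2 change of -0.64 ± 0.0744 (SE, edgeR adjusted p = 0.000238). With the offset BRCA1 kept its call, -0.29 (edgeR adjusted p = 0.0376), and BRCA2 did not, -0.28 (edgeR adjusted p = 0.181). BRIP1, the helicase partner of BRCA1, fell by 35.8%, with a log2 change of -0.64 ± 0.105 (SE, edgeR adjusted p = 0.00115), and lost its call with the offset, -0.25 (edgeR adjusted p = 0.142). BARD1, the partner that forms the ubiquitin ligase with BRCA1, was not called, with a log2 change of -0.02 ± 0.0858 (SE, edgeR adjusted p = 0.904), nor were PALB2, the bridge to BRCA2, with -0.21, and RAD52, an annealing protein, with -0.04.

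TOPBP1, an activator of ATR, had 220 and 211 CPM in control, 136 and 139 CPM in SS and 193 and 200 CPM in SS+NAC. Its SS libraries were lowest. TOPBP1 fell by 36.1%, with a log2 change of -0.65 ± 0.0713 (SE, edgeR adjusted p = 0.000203), and with the offset had -0.33 (edgeR adjusted p = 0.0133). The BRCA1-A complex, which brings BRCA1 to ubiquitin at breaks, moved in both directions. Its deubiquitinase BRCC3 fell, with a log2 change of -0.51 ± 0.0789 (SE, edgeR adjusted p = 0.000833), with -0.41 (edgeR adjusted p = 0.0104) under the offset. Its scaffold ABRAXAS1 fell, with a log2 change of -0.51 ± 0.130 (SE, edgeR adjusted p = 0.0103), with -0.52 (edgeR adjusted p = 0.0351) under the offset. BABAM2 rose, with a log2 change of 0.50 ± 0.0767 (SE, edgeR adjusted p = 0.000779), and BABAM1 rose, with a log2 change of 0.30 ± 0.105 (SE, edgeR adjusted p = 0.0410), but neither was called with the offset, where BABAM2 had 0.25 (edgeR adjusted p = 0.0682) and BABAM1 -0.01 (edgeR adjusted p = 0.944). UIMC1, the ubiquitin reader of the complex, had -0.02 and was not called. SEM1 rose, with a log2 change of 0.28 ± 0.0777 (SE, edgeR adjusted p = 0.0164), and with the offset its value was -0.31 (edgeR adjusted p = 0.0833), of opposite sign and not called.

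Of the 4 single-strand binding genes tested, RPA2, RPA3 and SSBP1 rose and 0 fell, with a median of 0.38. The 3 that rose are shorter than 2000 bases, a class in which 53.8% of all genes were higher. With the offset 1 of the 4 was called (25.0%), where 9.23% of all genes were called and 4.19% were higher. RPA3, the smallest subunit of the RPA trimer, had 32.9 and 31.9 CPM in control, 46.9 and 51.2 CPM in SS and 33.0 and 33.0 CPM in SS+NAC. Both SS libraries lay above all others, and the SS+NAC libraries lay just above the control libraries. RPA3 rose 1.51-fold, with a log2 change of 0.60 ± 0.0790 (SE, edgeR adjusted p = 0.000423), and it was the repair gene with the lowest adjusted p among those that rose. RPA3 kept its call with the offset, 0.41 (edgeR adjusted p = 0.00777). Its span in the table overlaps UMAD1 and GLCCI1, which had -0.15 and -0.34 and were not called. RPA2 rose, with a log2 change of 0.31 ± 0.0698 (SE, edgeR adjusted p = 0.00543), and SSBP1 rose, with a log2 change of 0.45 ± 0.0806 (SE, edgeR adjusted p = 0.00177), but with the offset their values were 0.07 (edgeR adjusted p = 0.536) and -0.06 (edgeR adjusted p = 0.617). RPA1, the large subunit and at 3537 bases the longest of the list, was not called, with a log2 change of 0.07 ± 0.0722 (SE, edgeR adjusted p = 0.507).

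Of the polymerases, the translesion enzymes REV3L and POLK fell and the others of that list that were tested were not called. The share called was 40.0%, as for all genes, and with the offset again 40.0%, beside 9.23% of all genes. POLK, which bypasses bulky lesions, had 32.9 and 31.2 CPM in control, 17.2 and 17.2 CPM in SS and 31.3 and 38.3 CPM in SS+NAC. The SS libraries were equal at 3 digits and lowest, and SS+NAC replicate 2 was highest. POLK fell by 46.3%, with a log2 change of -0.90 ± 0.108 (SE, edgeR adjusted p = 0.000271), with -0.58 (edgeR adjusted p = 0.00729) under the offset. Its span in the table overlaps that of COL4A3BP, a lipid transfer gene that also fell, with a log2 change of -0.68 ± 0.0924 (SE, edgeR adjusted p = 0.000484). The RefSeq starts of POLK and COL4A3BP lie on opposite strands, and whether the genes share reads was not tested. REV1, POLH and POLI had log2 fold changes of -0.21, -0.24 and -0.22, with edgeR adjusted p between 0.0654 and 0.310, and with the offset the signs were opposite, with 0.04, 0.07 and 0.04. Among the 4 subunits of replicative polymerase delta, POLD4 rose and the others were not called, a share of 25.0% in both fits. POLD4, the smallest subunit, had 55.5 and 50.9 CPM in control, 77.0 and 76.7 CPM in SS and 57.2 and 61.6 CPM in SS+NAC. The SS libraries were highest, and the SS+NAC libraries also lay above both control libraries. POLD4 rose 1.45-fold, with a log2 change of 0.53 ± 0.0784 (SE, edgeR adjusted p = 0.000681), and with the offset had 0.29 (edgeR adjusted p = 0.0460).

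In the Fanconi core complex and its partners, 3 of 15 genes fell and 2 rose. The share called, 33.3%, was under the 40.0% of all genes, and most of the complex did not pass the test. FANCA, FANCE, FANCF, FANCG and FANCL, of which FANCL is the ubiquitin ligase, had log2 fold changes of -0.06, 0.11, 0.12, 0.24 and 0.19. Beside FANCM, FANCB fell, with a log2 change of -0.66 ± 0.224 (SE, edgeR adjusted p = 0.0372), and FANCC fell, with a log2 change of -0.28 ± 0.102 (SE, edgeR adjusted p = 0.0472). FANCB rested on 36 to 68 counts per library, with 3.17 and 2.71 CPM in control, 2.05 and 1.64 CPM in SS and 2.82 and 2.58 CPM in SS+NAC. The SS libraries were lowest. Neither call was kept with the offset, where FANCB had -0.50 (edgeR adjusted p = 0.188) and FANCC -0.12 (edgeR adjusted p = 0.50). UBE2T, which hands ubiquitin to FANCL, had 52.9 and 53.8 CPM in control, 70.2 and 80.1 CPM in SS and 52.5 and 52.3 CPM in SS+NAC. UBE2T was highest in both SS libraries and rose 1.41-fold, with a log2 change of 0.49 ± 0.0818 (SE, edgeR adjusted p = 0.00120), but had 0.03 (edgeR adjusted p = 0.813) with the offset. CENPX, a histone-fold partner of FANCM, rose, with a log2 change of 0.49 ± 0.171 (SE, edgeR adjusted p = 0.0411), with -0.01 (edgeR adjusted p = 0.973) under the offset. CENPS, the other histone-fold partner, had 0.23 and was not called, and it shares its reads with the read-through gene CENPS-CORT.

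The targets of the core complex, FANCD2 and FANCI, did not pass the test. FANCD2, whose ubiquitination marks an active pathway, had 42.5 and 49.0 CPM in control, 39.0 and 39.1 CPM in SS and 48.7 and 47.4 CPM in SS+NAC. The SS libraries were lowest, with a log2 change of -0.23 ± 0.0856 (SE, edgeR adjusted p = 0.0544), and with the offset the sign was opposite, 0.08 (edgeR adjusted p = 0.626). Pseudogenes of FANCD2 make its reads uncertain. FANCI, its partner, had a log2 change of -0.21 ± 0.0777 (SE, edgeR adjusted p = 0.0529) and 0.06 (edgeR adjusted p = 0.707) with the offset. USP1, which removes the ubiquitin, fell by 26.7%, with a log2 change of -0.45 ± 0.0830 (SE, edgeR adjusted p = 0.00205), and kept its call with the offset, -0.31 (edgeR adjusted p = 0.0329). WDR48, the cofactor of USP1, was not called, with -0.15.

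Among the genes that dissolve or cut joined DNA molecules, 5 of 14 fell and 4 rose, a share of 64.3% beside 40.0% of all genes. With the offset 2 were called, 14.3% beside 9.23%. BLM, the helicase of the dissolvasome, had 32.6 and 34.5 CPM in control, 22 and 24.7 CPM in SS and 31.1 and 33.5 CPM in SS+NAC. RMI1, which binds BLM to topoisomerase TOP3A, had 27.7 and 25.6 CPM in control, 20.2 and 18.6 CPM in SS and 24.2 and 27.8 CPM in SS+NAC. For both genes the SS libraries lay below all others. BLM fell by 30.5%, with a log2 change of -0.53 ± 0.0910 (SE, edgeR adjusted p = 0.00150), and RMI1 by 27.1%, with a log2 change of -0.46 ± 0.101 (SE, edgeR adjusted p = 0.00520). Both kept their calls with the offset, with -0.35 (edgeR adjusted p = 0.0388) for BLM and -0.36 (edgeR adjusted p = 0.0447) for RMI1. TOP3A fell, with a log2 change of -0.26 ± 0.0764 (SE, edgeR adjusted p = 0.0210), and had the opposite sign with the offset, 0.17 (edgeR adjusted p = 0.196). RMI2, the smallest member of that complex, rose, with a log2 change of 0.51 ± 0.124 (SE, edgeR adjusted p = 0.00840), and had 0.20 (edgeR adjusted p = 0.380) with the offset.

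The nuclease genes also moved in both directions. SLX1A and SLX1B, which share 1 set of reads, had 18.4 and 20.4 CPM in control, 27.4 and 35.4 CPM in SS and 22.6 and 19.7 CPM in SS+NAC. The SS libraries were highest, with SS replicate 2 above SS replicate 1. Their rise of 1.61-fold, with a log2 change of 0.69 ± 0.129 (SE, edgeR adjusted p = 0.00215), was the largest of any repair gene tested, and it was not called with the offset, 0.30 (edgeR adjusted p = 0.12). SLX4, the scaffold for these nucleases, was not called, with a log2 change of -0.35 ± 0.128 (SE, edgeR adjusted p = 0.0510), and with the offset the sign was opposite, 0.12 (edgeR adjusted p = 0.614). ERCC1 rose, with a log2 change of 0.40 ± 0.0841 (SE, edgeR adjusted p = 0.00422), while ERCC4, with which it forms the XPF nuclease, fell, with a log2 change of -0.45 ± 0.123 (SE, edgeR adjusted p = 0.0140). With the offset neither was called, with 0.19 (edgeR adjusted p = 0.134) for ERCC1 and -0.04 (edgeR adjusted p = 0.868) for ERCC4. FAN1, a nuclease bound to ubiquitinated FANCD2, fell, with a log2 change of -0.48 ± 0.0913 (SE, edgeR adjusted p = 0.00231), and had -0.19 (edgeR adjusted p = 0.180) with the offset. MUS81 and its partner EME1 were not called, with 0.02 and 0.25.

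**Figure D4:**
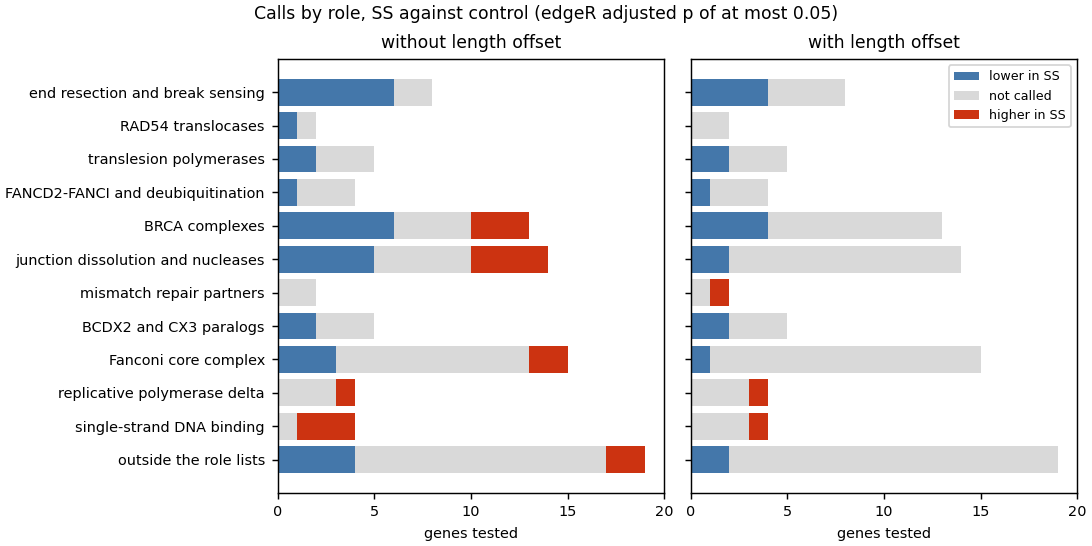
Number of tested genes per role that were lower in SS (blue), not called (grey) or higher in SS (red) compared to control, at an edgeR adjusted p of at most 0.05, without the length offset on the left and with it on the right. On the left, 6 of 8 end resection and break sensing genes are lower and 3 of 4 single-strand binding genes are higher. On the right, 4 and 1 of them remain.

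N-acetylcysteine served in the study as an inhibitor of reactive oxygen species, and the SS+NAC group shows which differences were present when selenite was given together with it. Between SS and SS+NAC, 55 of the 96 genes were called (57.3%), compared to 42.7% of all genes, with 20 higher in SS (all genes 19.6%) and 35 lower (all genes 23.1%). The DESeq2 Wald test, which ran on all 104 genes, called 17 higher and 23 lower (38.5%). Its share over all genes is not given here. The median log2 fold change of SS over SS+NAC was -0.15, beside -0.03 for all genes. Without SS replicate 2 the edgeR count was 30. This comparison uses the same SS libraries as the comparison with control, so the values stand side by side and are not independent. In both comparisons 42 genes were called, 28 of them lower in SS (29.2% of the 96, all genes 17.1%) and 14 higher (14.6%, all genes 14.2%). The Spearman coefficient with length was -0.77 across the 96 genes. With the offset 17 genes were called (17.7%, all genes 14.4%), 13 of them lower (all genes 7.38%) and 4 higher (all genes 7.04%). Without SS replicate 1 this count was 11, without SS replicate 2 it was 5 and without SS+NAC replicate 1 it was 32.

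The largest falls relative to SS+NAC were those of FANCM, BRCA2, POLK, REV3L and ATM. FANCM had a log2 change of -1.34 ± 0.157 (SE, edgeR adjusted p = 0.000291) and -1.01 (edgeR adjusted p = 0.00371) with the offset, which is close to its value against control of -1.34. BRCA2 had a log2 change of -1.11 ± 0.122 (SE, edgeR adjusted p = 0.000245), and here its call held with the offset, -0.56 (edgeR adjusted p = 0.0132). That offset call was lost without SS replicate 1 and without SS replicate 2. POLK had a log2 change of -1.02 ± 0.106 (SE, edgeR adjusted p = 0.000202) and -0.71 (edgeR adjusted p = 0.00229) with the offset, and REV3L had a log2 change of -1.01 ± 0.116 (SE, edgeR adjusted p = 0.000269) and -0.47 (edgeR adjusted p = 0.0179). ATM had a log2 change of -0.79 ± 0.0977 (SE, edgeR adjusted p = 0.000349), and was not called with the offset, -0.22 (edgeR adjusted p = 0.158). The largest rises were those of CENPX, SLX1A, SLX1B, RPA3, SSBP1 and UBE2T. RPA3 had a log2 change of 0.57 ± 0.0779 (SE, edgeR adjusted p = 0.000490) and 0.41 (edgeR adjusted p = 0.00611) with the offset. CENPX had a log2 change of 0.75 ± 0.171 (SE, edgeR adjusted p = 0.00573), and SLX1A had a log2 change of 0.57 ± 0.126 (SE, edgeR adjusted p = 0.00480). The calls of CENPX, SLX1A and SLX1B were lost without SS replicate 2 and with the offset, where CENPX had 0.22 (edgeR adjusted p = 0.291). The offset calls of REV3L and RPA3 were also lost without SS replicate 2. FANCG was called in this comparison, with a log2 change of 0.40 ± 0.0977 (SE, edgeR adjusted p = 0.00770), and with the offset, 0.37 (edgeR adjusted p = 0.0273). Its call was lost when SS replicate 2 was left out, and with the offset also when SS+NAC replicate 2 was. Against control FANCG was not called, with a log2 change of 0.24 ± 0.0981 (SE, edgeR adjusted p = 0.0756) beside the 0.40 relative to SS+NAC. The difference between these effects is that between SS+NAC and control, for which FANCG had a log2 change of -0.16 ± 0.0991 (SE, edgeR adjusted p = 0.447).

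In both comparisons and with the offset, 11 genes were called (11.5%, all genes 6.02%), of which RPA3 was higher and FANCM, REV3L, POLK, RAD50, NBN, RBBP8, ABRAXAS1, XRCC2, RAD51D and RMI1 were lower in SS. Of these, XRCC2 had a log2 change of -0.58 ± 0.0912 (SE, edgeR adjusted p = 0.000841) relative to SS+NAC. RAD51D had a log2 change of -0.49 ± 0.0926 (SE, edgeR adjusted p = 0.00217). FANCM, POLK, RAD51D and XRCC2 were called relative to SS+NAC with the offset whichever library was left out. SEM1, which rose relative to SS+NAC, with a log2 change of 0.27 ± 0.0770 (SE, edgeR adjusted p = 0.0165), was called in the opposite direction with the offset, -0.38 (edgeR adjusted p = 0.0300). This reversed call was lost without SS replicate 2 and without SS+NAC replicate 2. RPA1 was called higher with the offset only, 0.28 (edgeR adjusted p = 0.0222), a call lost without either SS library or either control library.

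Of the 96 genes, 1 was called between SS+NAC and control (1.04%), compared to 2.01% of all genes, and the median was -0.01. It was lower in SS+NAC, as were 0.657% of all genes, while 1.36% of all genes were higher. An unadjusted edgeR p under 0.05 was found in 8 of the 96 genes, beside 2256 of all 14005 genes tested. The DESeq2 Wald test called 1 of 104. The called gene was PPP1R13L, an inhibitor of p53 whose span in the table overlaps ERCC1 and which is on none of the role lists. PPP1R13L had 63.9 and 58.9 CPM in control, 64.4 and 65.4 CPM in SS and 49.5 and 44.4 CPM in SS+NAC. Both SS+NAC libraries lay below the other 4, with a log2 change of -0.39 ± 0.0826 (SE, edgeR adjusted p = 0.0430). The call was lost without either control library, either SS library or SS+NAC replicate 2, and without SS+NAC replicate 1 the count over the 96 genes was 3. With the length offset PPP1R13L was again the 1 gene called, -0.40 (edgeR adjusted p = 0.0342), where 0.664% of all genes were lower and 1.35% higher. None of the 77 tested genes on the role lists was called in this comparison, which does not show that their levels were equal. RAD51C had a log2 change of -0.29 ± 0.0971 (SE, edgeR adjusted p = 0.181). BRCA2 had a log2 change of 0.25 ± 0.116 (SE, edgeR adjusted p = 0.313). These values are as large as some of the called differences between SS and control.

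The 25 assigned genes outside the role lists lie mostly beside a repair gene. Of these, 22 overlap a listed repair gene in the spans of the table, the exceptions being RSPH10B2, SYCP3, a meiotic axis protein, and TYW1, a tRNA modification enzyme. Some of these spans reach beyond the RefSeq starts. The starts of ATM and NPAT point away from each other, 429 bases apart, yet their spans overlap by 273792 bases. An overlap of spans therefore does not show that 2 genes share exons. Of the 19 genes outside the role lists that were tested, 4 fell and 2 rose, a share of 31.6% beside 40.0% of all genes. With the offset 2 were called, 10.5% beside 9.23%. NPAT had 23.6 and 22.2 CPM in control, 13.3 and 14.9 CPM in SS and 23.8 and 24.7 CPM in SS+NAC. NPAT was lower in SS than in all other libraries and fell by 38.3%, with a log2 change of -0.70 ± 0.0983 (SE, edgeR adjusted p = 0.000565). For ATM, whose span in the table overlaps that of NPAT, the fall was 44.4%. With the offset NPAT had -0.30 (edgeR adjusted p = 0.0941) against control and -0.40 (edgeR adjusted p = 0.0238) against SS+NAC. VRK2, a kinase gene whose span in the table overlaps FANCL, fell, with a log2 change of -0.42 ± 0.0994 (SE, edgeR adjusted p = 0.00696), while FANCL was not called. EMC3, a subunit of a membrane insertion complex whose span in the table overlaps FANCD2, rose, with a log2 change of 0.34 ± 0.0749 (SE, edgeR adjusted p = 0.00523). NUBP2, an iron-sulfur assembly factor beside EME2, rose, with a log2 change of 0.48 ± 0.108 (SE, edgeR adjusted p = 0.00580), but neither EMC3 nor NUBP2 was called with the offset. The sources used here do not state whether reads were counted by strand, so reads from overlapping exons cannot be assigned with certainty.

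Other genes of DNA repair and the cell cycle were read from fixed lists for comparison. Of 21 recombination genes without either KEGG assignment, 8 fell and 1 rose in SS compared to control, and with the offset 5 fell and 0 rose. The share called was 42.9%, close to the 40.0% of all genes, and 23.8% with the offset, where it was 9.23% of all genes. POLQ, the polymerase of microhomology-mediated joining, had a log2 fold change of -0.78 (edgeR adjusted p = 0.000264), with -0.33 (edgeR adjusted p = 0.0465) under the offset. MCM8, a helicase that assists recombination, had -0.56 (edgeR adjusted p = 0.000380), with -0.28 (edgeR adjusted p = 0.0399) under the offset. SWI5, a short cofactor of strand exchange, had 0.60 (edgeR adjusted p = 0.000330) and 0.13 (edgeR adjusted p = 0.373) with the offset. Of 10 genes of non-homologous end joining, the pathway that rejoins ends directly, 1 fell and 1 rose without the offset, where 40.0% of all genes were called, and 1 fell and 1 rose with it, where 9.23% were. The one that fell was LIG4, its DNA ligase, with -0.84 (edgeR adjusted p = 0.000402) and -0.64 (edgeR adjusted p = 0.00581) with the offset. Of 17 checkpoint genes, 4 fell and 2 rose (35.3% called), and with the offset 1 fell, ETAA1, an activator of ATR, with -0.75 (edgeR adjusted p = 0.00723), and 1 rose.

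Genes of the cell cycle and p53 targets were read in the same way, and their part in the changes of the repair genes was not tested. Of 30 S phase genes, 8 rose and 2 fell compared to control, and with the offset 1 rose and 1 fell. These shares, 33.3% and 6.67%, were under the 40.0% and 9.23% of all genes. Relative to SS+NAC, 14 of the 30 were higher in SS and 0 lower (46.7%, all genes 42.7%), and with the offset 9 were higher and 0 lower, where 7.04% of all genes were higher. PCNA, the polymerase clamp, had 0.52 (edgeR adjusted p = 0.000537) and 0.17 (edgeR adjusted p = 0.128) with the offset. Of 20 genes of G2 and M phase, 9 fell and 4 rose (65.0% called), and with the offset 3 fell and 0 rose (15.0%), among them CENPE, a mitotic motor, with -1.30 (edgeR adjusted p = 0.000592). Of 20 p53 target genes, 6 rose and 1 fell (35.0% called, under the share of all genes), and with the offset 4 rose and 0 fell, against 4.19% and 5.04% of all genes. CDKN1A, the cell cycle inhibitor p21, had 14.2 and 14.5 CPM in control, 31.7 and 24.8 CPM in SS and 17.2 and 18 CPM in SS+NAC. Its log2 fold change was 0.98 (edgeR adjusted p = 0.000312), with 0.83 (edgeR adjusted p = 0.00434) under the offset. Relative to SS+NAC, 8 of the 20 genes of G2 and M phase were higher in SS and 5 lower, and 7 of the 20 p53 target genes were higher and 4 lower. With the offset these counts were 2 and 1 and, for p53 targets, 3 and 2, where 7.04% of all genes were higher and 7.38% lower. Between SS+NAC and control 0 of the 20 genes of G2 and M phase were called by edgeR and 3 by DESeq2, all lower. An unadjusted edgeR p under 0.05 was found in 13 of the 20, beside 2256 of all 14005 genes tested, and their median was -0.23. Of the p53 target genes 2 were higher in SS+NAC than in control, beside 1.36% of all genes, among them GADD45A, a growth arrest gene, with 0.83 (edgeR adjusted p = 0.000336).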

How the data were processed

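RNA-seq was carried out on 6 libraries of KHM-5M cells, 2 each for control, SS and SS+NAC. The study's methods name RSEM (v1.2.12) for the gene levels, HISAT2 (v2.0.4) for the mapping and SOAPnuke for the removal of unsuitable reads. The submitters' processing notes also name Bowtie2 (v2.2.5). The authors deposited estimated counts (RSEM expected counts), FPKM and TPM per gene and library. The genome build of the mapping is not given in the sources used here. The columns of the authors' own comparisons (fold changes, p-values and q-values) and 9 columns of group means were left unused.

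The expected counts, 44.8% of which were not whole, were rounded and tested in edgeR (v4.0.16, R v4.3.3) with the quasi-likelihood test on all 6 libraries together, after filterByExpr (14005 genes) and TMM normalization, with Benjamini-Hochberg adjustment over all genes tested and a threshold of 0.05. Levels were compared between genes as the deposited TPM only. Effective length was derived as the ratio of count to FPKM in the deposited table, and a second fit carried a per-library offset from a lowess fit of log counts on log length (span 0.3). This offset also removes any real difference that follows length. On simulated counts for SS against control (14005 genes, of which 200 were changed by 1 on the log2 scale), 88.5% of the changed genes were recovered without a length trend. With a simulated length trend, 2702 unchanged genes were called without the offset and 10 with it, and 90% of the changed genes were recovered with the offset. The simulated trend was linear in log length and equal in both SS libraries. Changes smaller than 1 on the log2 scale, as most reported here, were not simulated.

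The members and lists were chosen with earlier results of these data known. The genes named were 42 fixed members, the 5 called members with the largest rises and falls in each comparison (at least 1 CPM), up to 10 called with the offset, and the members that failed the filter. A member is not reported here and is not drawn in the figures, although the counts include it. Other members are examples of their role that were chosen after their values were seen. Replicate libraries differed by more than sampling noise (chi-square per degree of freedom 3.16, 7.45 and 12.3 in control, SS and SS+NAC). Promoter windows were taken from RefSeq (GRCh38.p14). DESeq2 (v1.42.0), other filters and normalizations, a replicate block and leaving out each library were tried as alternatives, and figures were drawn with matplotlib (v3.10.9).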

Additional observations from a re-analysis of the deposited data

How the results depend on the processing

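The direction of the median over the repair genes tested, lower in SS, was kept under all alternatives tried for SS against control and SS against SS+NAC. The genes tested were not the same in all of them. The main fit had 96 and the DESeq2 Wald test all 104, and a changed filter also changes the set. The number of genes called depended on the treatment of length. The median of the Fanconi anemia pathway alone was 0.02 with the length offset for SS against control. For SS against control, the median log2 fold change was -0.13 with the DESeq2 Wald test and -0.14 with no filter, fits that include genes of very low counts. On the role lists it was -0.06 both in the main fit (77 genes) and with the DESeq2 Wald test (79 genes). Over all repair genes tested it was -0.04 with a minimum of 10 counts in every library, -0.04 with the length offset and -0.04 with the length offset and replicate block. For SS against SS+NAC it was -0.12 with DESeq2 size factors, -0.12 with the DESeq2 Wald test, -0.13 with the minimum of 10 counts, -0.13 with the compared libraries only, -0.04 with the length offset and -0.04 with the length offset and replicate block. For SS+NAC against control it was -0.03 with DESeq2 size factors, -0.05 with the DESeq2 Wald test and -0.03 with no filter. The offset gave 21 calls for SS against control and 17 for SS against SS+NAC. The offset with the replicate block gave 13, 14 and, for SS+NAC against control, 0. Bonferroni adjustment gave 3, 2 and 0. The shares of all genes called with the block or with Bonferroni adjustment are not given here. Whether these counts exceed those shares is therefore not shown. The 1 call between SS+NAC and control was 0 with no filter, with the compared libraries only and with the replicate block.

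The replicate numbers were not taken to pair the libraries, since same-numbered deviations correlated at 0.11, -0.11 and -0.17. With the replicate block 42, 49 and 0 genes were called, without a share over all genes to set beside them. The medians were -0.07 for SS against control and -0.15 for SS against SS+NAC.

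When 1 library was left out, the counts ranged from 32 to 53 for SS against control, from 30 to 51 for SS against SS+NAC and from 0 to 3 for SS+NAC against control, and the medians from -0.11 to -0.03, from -0.15 to -0.12 and from -0.02 to 0.01. With the offset as well, an alternative chosen after seeing the data, the counts ranged from 1 to 31, from 5 to 32 and from 0 to 3, with 1, 6, 4 and 3 calls for SS against control without control replicate 1, control replicate 2, SS replicate 1 and SS replicate 2, and 11, 5 and 32 for SS against SS+NAC without SS replicate 1, SS replicate 2 and SS+NAC replicate 1.

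With the length offset the sign of the difference turned for 30 of the 96 genes between SS and control and for 22 between SS and SS+NAC. In each comparison 5 of these had been called, BABAM1, CENPX, SEM1, SSBP1 and TOP3A for SS against control and ERCC4, SEM1, SLX4, SSBP1 and TOP3A for SS against SS+NAC. Among the 42 fixed members, those that turned between SS and control were, with their log2 values under the offset without and with the replicate block, BARD1 (0.29 and 0.30), FANCA (0.15 in both), FANCD2 (0.08), FANCI (0.06), FANCL (-0.06), MUS81 (-0.09), RAD51C (-0.29), RAD52 (0.04 and 0.03), SLX4 (0.12), TOP3A (0.17) and WDR48 (0.03). BARD1 also had 0.01 with the minimum of 10 counts and lay between -0.08 and 0.08 when 1 library was left out, with 0.08 without control replicate 2. Relative to SS+NAC the values of called genes of the naming rule that turned were those of SLX4 (0.02 and 0.03), SSBP1 (-0.01) and TOP3A (0.18). The cause was not tested. With 2 libraries per group, small differences of genes with few counts could not be detected.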
